A study of Mus musculus with 2 samples.

Results

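The sirtuins are a family of 7 genes in the mouse, Sirt1 to Sirt7. All 7 were found by symbol among the 32285 genes of the count matrices, each on 1 row. Their unique molecular identifiers (UMIs, each standing for 1 captured transcript) were followed across cell classes in hindlimb muscle of aged (24 months) female C57Bl/6J mice. One library came from mice given 3 intramuscular injections of ATRA (all-trans retinoic acid), CD3254 (an agonist of the retinoid X receptor alpha) and BMS961 (an agonist of the retinoic acid receptor gamma) over a week, here called ATRA+agonist, and the other came from mice given the DMSO vehicle in the same way. Suspensions from 2 mice were pooled in each library, so each condition is 1 sample. No statistical test between conditions was possible, no value here measures the spread between mice, and every interval given is a 95% interval that covers counting error only.

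Sirtuins remove acetyl and other acyl groups from lysines of proteins in a reaction that consumes NAD+, which ties their activity to the metabolic state of the cell. Sirt1, Sirt6 and Sirt7 proteins are found mainly in the nucleus, Sirt2 mainly in the cytoplasm, and Sirt3, Sirt4 and Sirt5 in mitochondria. In muscle stem cells (MuSCs), Sirt1 is known for its part in the change of histone acetylation that accompanies exit from quiescence. Transcript levels, which are what these libraries measure, do not report on the activity of the enzymes.

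The libraries held 10444 barcodes with 65197625 UMIs (ATRA+agonist) and 17394 barcodes with 109343486 UMIs (DMSO vehicle), of which 6907 and 6953 barcodes were kept as cells with median depths of 4695 and 4839 UMIs. The libraries shared 43 barcode sequences, 9 of them among the kept cells. Of 27 clusters, 24 were named after markers, giving 12 classes, and 8 classes had at least 100 cells in each library and were compared. These were endothelial-like cells (2453 in the ATRA+agonist library and 2266 in the vehicle library), FAP-like cells (1332 and 1657, for fibro-adipogenic progenitors), MuSC-like cells (415 and 532), monocyte or macrophage-like cells (434 and 346), tenocyte-like cells (163 and 501), smooth muscle or pericyte-like cells (220 and 293), neural (glial)-like cells (131 and 380) and dendritic-like cells (151 and 101). The MuSC-like class held a Pax7 UMI in 360 of 415 cells with ATRA+agonist and in 419 of 532 cells with vehicle, and all 11 markers of its list were above 0 in both libraries. The endothelial-like class was made of different clusters in the 2 libraries, with 1599 and 720 cells in a cluster led by Aqp1 and Kdr, 74 and 994 in a cluster led by the interferon-induced genes Cd274 and Gbp4, and 661 and 378 in a shallow cluster led by Rflnb and Unc45b.

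The sirtuin genes lie on 5 chromosomes of the GRCm38 build, in the GENCODE M21 annotation. Sirt1 (ENSMUSG00000020063) spans chromosome 10, 63319005 to 63381704 on the minus strand, and an antisense gene, Gm16145, shares 13035 bases of that span. Sirt2 (ENSMUSG00000015149) spans chromosome 7, 28766735 to 28788661 on the plus strand, and Sirt3 (ENSMUSG00000025486) lies on the same chromosome at 140863666 to 140882309 on the minus strand. Sirt4 (ENSMUSG00000029524) is at chromosome 5, 115478010 to 115484725 on the minus strand, and Sirt5 (ENSMUSG00000054021) at chromosome 13, 43365496 to 43395203 on the plus strand. Sirt6 (ENSMUSG00000034748) is at chromosome 10, 81621785 to 81627797, and Sirt7 (ENSMUSG00000025138) at chromosome 11, 120618372 to 120625240, both on the minus strand. Sirt2 overlaps Nfkbib by 778 bases and Sirt3 overlaps Ric8a by 707 and Psmd13 by 342 bases, all on the opposite strand, whereas Sirt7 shares 124 bases with Mafg on its own strand, where reads cannot be assigned to 1 of the 2 genes.

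Because the injected compounds act on retinoic acid and retinoid X receptors, which bind repeats of the hexamer AGGTCA, the 9 RefSeq promoters of the 7 genes (250 bases before to 50 bases after the gene start, GRCm38.p6) were searched for it on both strands. The hexamer was present in 5340 of 32851 promoters of all genes, or 16.3%, and in 1 of the 9 sirtuin promoters, that of Sirt5, which held 2. No sirtuin promoter held 2 copies in direct repeat with 1, 2 or 5 bases between them, arrangements found in 13, 3 and 3 promoters of all genes. The promoters of Sirt5, of Sirt1 and of Sirt2 are shown, the first for its copies of the hexamer, in capitals on either strand, and the other two because these genes gave the most UMIs. Only exact copies of AGGTCA were counted, and variants such as GGGTCA, which the Sirt1 promoter shown holds, were not. A match is a description of these letters and not a receptor site, and the lack of a match does not exclude one.
Sirt5, chr13:43365285-43365584, plus strand: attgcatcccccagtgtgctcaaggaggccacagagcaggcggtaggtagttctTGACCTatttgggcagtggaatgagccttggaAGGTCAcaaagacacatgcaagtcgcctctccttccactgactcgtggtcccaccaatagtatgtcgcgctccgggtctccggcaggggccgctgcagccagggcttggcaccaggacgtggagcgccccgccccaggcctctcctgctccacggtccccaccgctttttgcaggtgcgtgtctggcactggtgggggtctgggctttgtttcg
Sirt1, chr10:63338986-63339285, minus strand: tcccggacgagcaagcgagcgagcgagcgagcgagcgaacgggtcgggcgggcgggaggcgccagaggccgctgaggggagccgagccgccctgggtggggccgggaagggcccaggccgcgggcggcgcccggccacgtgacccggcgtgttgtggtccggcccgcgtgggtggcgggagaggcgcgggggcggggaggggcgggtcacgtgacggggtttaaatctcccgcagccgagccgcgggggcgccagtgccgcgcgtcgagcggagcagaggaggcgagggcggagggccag
Sirt2, chr7:28766502-28766801, plus strand: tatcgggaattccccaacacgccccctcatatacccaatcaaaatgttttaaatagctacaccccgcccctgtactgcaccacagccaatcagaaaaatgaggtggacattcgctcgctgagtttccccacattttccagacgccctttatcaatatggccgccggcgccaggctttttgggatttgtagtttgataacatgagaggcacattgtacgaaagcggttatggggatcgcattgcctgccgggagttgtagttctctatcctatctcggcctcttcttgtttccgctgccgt
The Sirt1 promoter was 79.0% G and C with 47 CpG dinucleotides, above the G and C content of 98.6% of all promoters, while that of Sirt2 was 50% with 16 CpG, at percentile 39.3. The median over the 9 sirtuin promoters was 61.0% G and C and 20 CpG, against 52.7% and 7 over all promoters. The Sirt1 window of RefSeq lies inside the longer GENCODE span given above, whose annotated start is further upstream.

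The first comparison asked where each sirtuin was expressed. Levels are given as UMIs per 1000000 UMIs of the class (CPM). Over all kept cells, Sirt1 and Sirt2 gave the most UMIs, with 3595 and 4272 UMIs of Sirt1 (ATRA+agonist and vehicle, 86.3 and 105 CPM) and 2669 and 2364 UMIs of Sirt2 (64.1 and 58.2 CPM). Per kilobase of annotated exon, Sirt1 stood at 16.2 and 19.7 CPM per kilobase, Sirt2 at 12.7 and 11.6 and Sirt7 at 4.61 and 3.98, and the other 4 members lay between 1.12 and 1.52. Whether intronic reads were counted is not given in the sources used here. Per kilobase of the whole gene span the order was different, with Sirt7 at 3.46 and 2.99 and Sirt2 at 2.92 and 2.65 above Sirt1 at 1.38 and 1.68. The order of the members depended on the length used, and UMIs of 3' libraries need not scale with either length, so no order between members is read from these values.

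**Figure D1:**
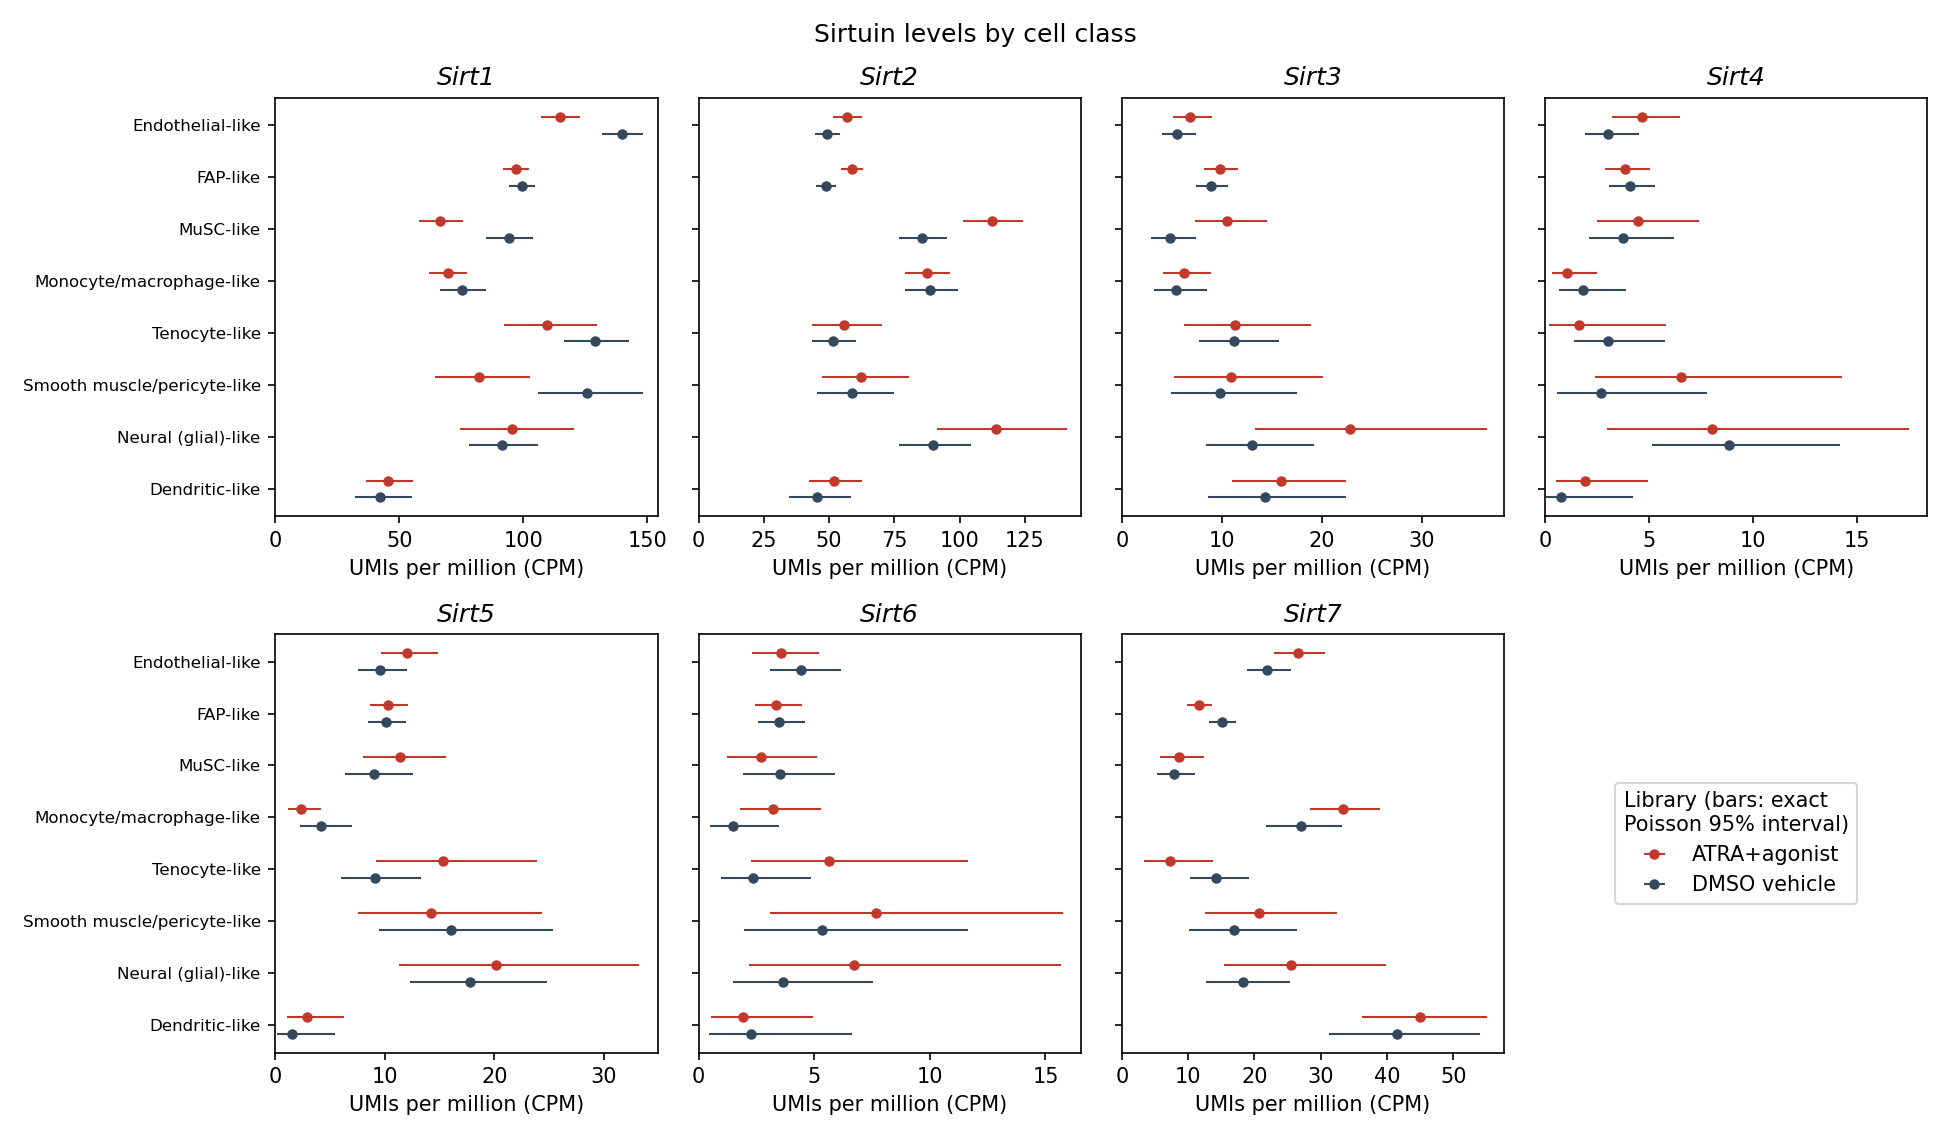
Level of each sirtuin in the 8 compared classes, with CPM on the horizontal axis (its scale differs between panels), 1 point per library and bars for the exact Poisson 95% interval. Sirt1 was lowest in dendritic-like cells, Sirt2 highest in neural (glial)-like and MuSC-like cells, and Sirt7 highest in dendritic-like cells at 45.0 and 41.6 CPM.

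Of the nuclear sirtuins, Sirt1 was highest in endothelial-like cells, at 115 CPM with ATRA+agonist and 140 CPM with vehicle. Tenocyte-like cells followed at 110 and 129 CPM, and the intervals of these neighbours overlapped in both libraries. MuSC-like cells were the sixth of the 8 classes, at 66.4 CPM (58.0 to 75.8) with ATRA+agonist and 94.1 CPM (84.8 to 104) with vehicle. Dendritic-like cells had the lowest level, 45.5 and 42.3 CPM, and this was the single step in the order of Sirt1 at which neighbouring intervals were apart in both libraries. From the highest to the lowest class the mean level differed 2.90-fold.

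Sirt7, which acts on chromatin and in ribosomal RNA synthesis, showed another pattern. Of the 8 compared classes it was highest in the 2 immune ones. Dendritic-like cells held 45.0 and 41.6 CPM and monocyte or macrophage-like cells 33.4 and 27.0 CPM. At no step in the order of Sirt7 were neighbouring intervals apart in either library. Endothelial-like cells, the next class, thus overlapped monocyte or macrophage-like cells. The immune classes too small to compare between libraries were high as well, with T or NK cell-like cells at 54.9 and 56.7 CPM, B cell-like cells at 40.8 and 55.3 CPM and neutrophil-like cells at 34.7 and 48.6 CPM. Of the 8 compared classes, MuSC-like cells had the lowest level of Sirt7, 8.68 CPM (29 UMIs) and 7.80 CPM (31 UMIs), 5.25-fold below dendritic-like cells. Among these 8 classes, Sirt7 was highest in the dendritic-like class in which Sirt1 was lowest. Sirt6, which acts in DNA repair and telomere maintenance, was sparse in every class, with 7 to 93 UMIs over both libraries and levels of at most 7.65 CPM, and no 2 neighbouring classes had intervals apart in both libraries.

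Sirt2, the cytoplasmic tubulin deacetylase that also acts on nuclear substrates, was highest in neural (glial)-like cells at 114 and 89.8 CPM and in MuSC-like cells at 112 CPM (101 to 124) and 85.8 CPM (76.9 to 95.4). Monocyte or macrophage-like cells followed at 87.5 and 88.8 CPM. The other 5 classes lay between 45.3 and 62.3 CPM, and none of their neighbours had intervals apart. In the library of vehicle-treated muscle the 3 leading classes overlapped in their intervals, and with ATRA+agonist the interval of MuSC-like cells lay above that of monocyte or macrophage-like cells. With UMIs outside mitochondrial, ribosomal protein and hemoglobin genes as the denominator, MuSC-like cells moved to the first place and neural (glial)-like cells to the second, and endothelial-like cells replaced dendritic-like cells at the lowest place.

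Of the mitochondrial sirtuins, Sirt5, which removes succinyl, malonyl and glutaryl groups, differed most between classes. Neural (glial)-like cells held 20.1 and 17.7 CPM and smooth muscle or pericyte-like cells 14.2 and 16.1 CPM. MuSC-like cells held 11.4 CPM (38 UMIs) and 9.05 CPM (36 UMIs). Levels were low in monocyte or macrophage-like cells, at 2.35 and 4.20 CPM, and in dendritic-like cells, at 2.90 and 1.51 CPM, and the drop from FAP-like to monocyte or macrophage-like cells was the 1 step at which neighbouring intervals were apart in both libraries. No UMI of Sirt5 was found in the 58 and 196 neutrophil-like cells, for which the exact Poisson intervals reach up to 9.84 and 1.93 CPM. Sirt3, the main mitochondrial deacetylase, ranged from 4.78 to 22.8 CPM with neural (glial)-like cells highest, and Sirt4 from 0.756 to 8.87 CPM, also with neural (glial)-like cells highest. Neither member had neighbouring classes with intervals apart in both libraries.

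The myonuclei-like barcodes, rich in fiber transcripts, were found almost entirely in the ATRA+agonist library (228 against 24 barcodes). Among their 47 sirtuin UMIs in that library, 34 were of Sirt2 (89.7 CPM, 62.1 to 125) and 2 of Sirt1 (5.28 CPM, 0.639 to 19.1). The upper end of this Sirt1 interval lay below the lower end of the Sirt1 interval in each of the 8 compared classes of that library.

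The share of cells in which a transcript is found depends on depth as well as on its level. At least 1 UMI of Sirt1 was found in 34.7% (30.1% to 39.5%, Clopper-Pearson) of MuSC-like cells with ATRA+agonist and in 43.0% (38.8% to 47.4%) with vehicle, at median depths of 7464 and 6469 UMIs, and at least 1 UMI of Sirt2 in 51.1% (46.2% to 56.0%) and 40.6% (36.4% to 44.9%). After every cell was thinned to 1000 UMIs, with 4 shallower ATRA+agonist cells left out, the shares were 8.03% and 9.59% for Sirt1 and 10.9% and 7.89% for Sirt2, and the intervals of the 2 libraries overlapped for both genes. Barcodes with at least 10% hemoglobin, taken as red blood cells, served as a reference for free RNA. Of them, 2.15% and 2.10% held a Sirt1 UMI and 1.69% and 1.81% a Sirt2 UMI. Their mean depths were 496 and 583 UMIs outside hemoglobin. The 312 Sirt1 UMIs of the vehicle library lay in 2.10% of its 8388 such barcodes, so some held several. Whether other cells lay among these barcodes was not tested. Unthinned cells are several times deeper than these barcodes, so the shares are set side by side only at 1000 UMIs per cell, which is still deeper. The thinned share of Sirt6 exceeded the red blood cell share in 8 of 16 combinations of class and library and that of Sirt4 in 10. In the other combinations these members were not above this reference, which is not known to hold free RNA alone. In barcodes under 300 genes, Sirt1 stood at 16.7 CPM (2 UMIs) with ATRA+agonist and 9.15 CPM (1 UMI) with vehicle.

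To compare sirtuin levels after ATRA+agonist with those after vehicle, the log2 ratio of CPM (ATRA+agonist over vehicle) was taken in each class, with an exact interval. A ratio was called where it was at least 1.5-fold in either direction with at least 100 UMIs over both libraries. Of 56 combinations of sirtuin and class, 24 reached 100 UMIs, none was called higher and 1 was called lower, Sirt1 in smooth muscle or pericyte-like cells. Among all genes with at least 100 UMIs, 7.26% were called in endothelial-like, 6.49% in FAP-like, 7.09% in MuSC-like, 4.67% in monocyte or macrophage-like, 11% in tenocyte-like, 9.37% in smooth muscle or pericyte-like, 10.8% in neural (glial)-like and 8.07% in dendritic-like cells. Over all 8 classes together the share was 7.69%, and the sirtuins, with 1 of 24, were not above it. The counting interval excluded 0 in 7 of the 24 combinations, all of them of Sirt1, Sirt2 or Sirt7, and in 30.2% of all combinations of gene and class with at least 100 UMIs. An interval without 0 was therefore about as common among other genes as among the sirtuins and does not set a member apart.

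**Figure D2:**
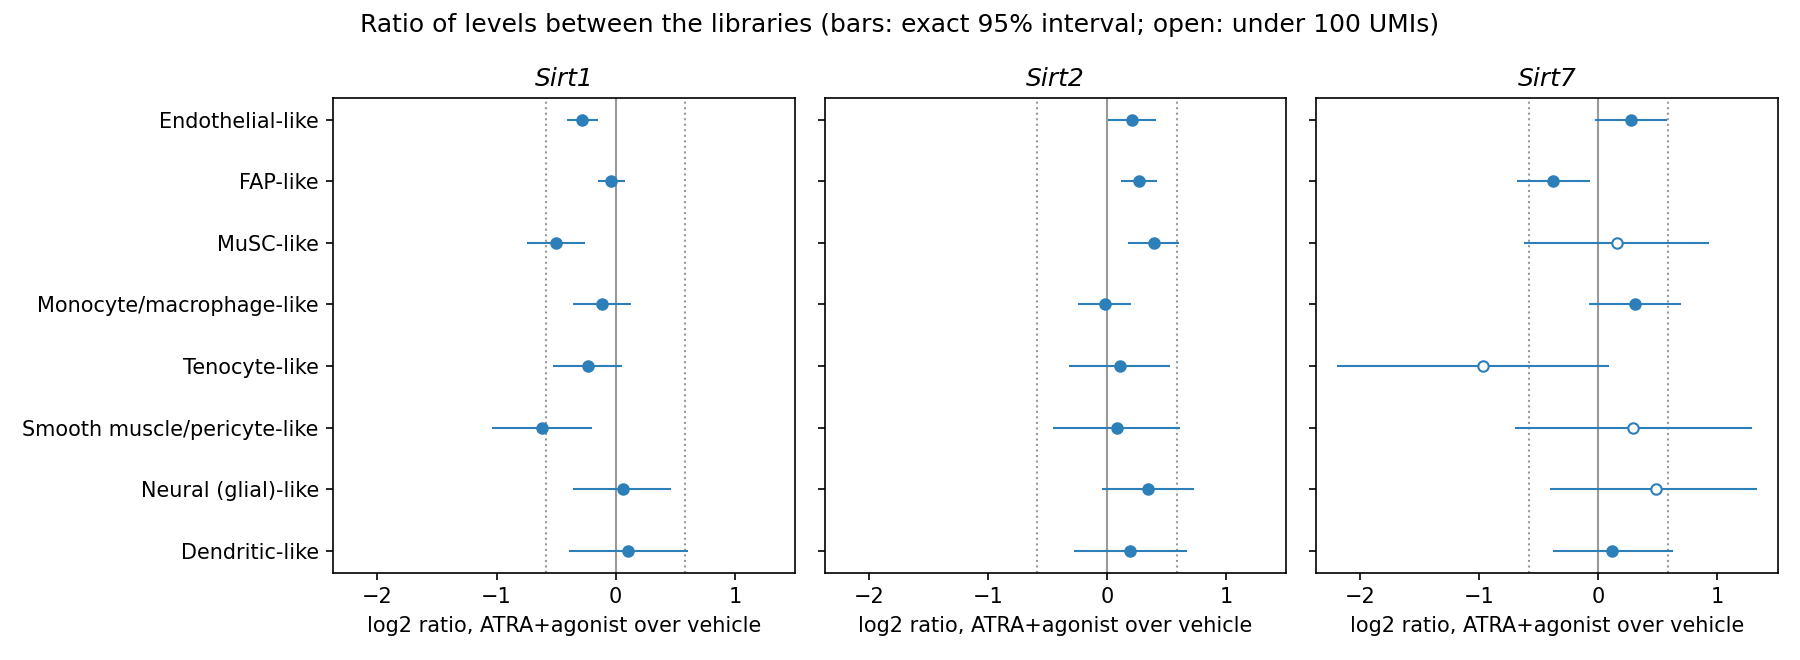
Log2 ratio of the level with ATRA+agonist over vehicle for Sirt1, Sirt2 and Sirt7 in each class, with exact 95% counting intervals, dotted lines at 1.5-fold and open points where both libraries together held under 100 UMIs. Sirt1 lay below 0 in 6 of 8 classes and Sirt2 above 0 in 7 of 8. With every cell thinned to 1000 UMIs, a random draw that keeps fewer UMIs, some directions turned. Those of Sirt1 turned in FAP-like (0.11), monocyte or macrophage-like (0.28) and neural (glial)-like cells (-0.31). Those of Sirt2 turned in endothelial-like (-0.02), tenocyte-like (-0.53), dendritic-like (-0.76) and monocyte or macrophage-like cells (0.71). No interval is given for the thinned values.

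In MuSC-like cells, Sirt1 and Sirt2 differed between the libraries in opposite directions. Sirt1 had 222 UMIs with ATRA+agonist (66.4 CPM) and 374 with vehicle (94.1 CPM), a log2 ratio of -0.50 (-0.75 to -0.26). Sirt2 had 376 and 341 UMIs (112 and 85.8 CPM), a log2 ratio of 0.39 (0.18 to 0.61). After every cell was thinned to 1000 UMIs, the ratio of Sirt1 was -0.25 and that of Sirt2 0.59. Both intervals given above excluded 0, as did those of 30.1% of genes in this class, and both ratios were under 1.5-fold, a size that 3.91% of genes in this class exceeded upward and 3.18% downward. Sirt2 in MuSCs is a gene that the study singled out on these same libraries, so its direction here is not independent evidence. Under 100 UMIs, Sirt3 had 35 and 19 UMIs (10.5 and 4.78 CPM) and a log2 ratio of 1.13 (0.29 to 2.02), the largest among the members in this class, which became 0.37 after thinning. In the red blood cell barcodes, Sirt3 stood at 12.7 CPM (15 UMIs) with ATRA+agonist and 6.34 CPM (31 UMIs) with vehicle, and the part of free RNA in its ratio was not tested. The ratios of the remaining members, on 23 to 74 UMIs each, were 0.25 for Sirt4, 0.33 for Sirt5, -0.39 for Sirt6 and 0.15 for Sirt7, and their intervals included 0. Summed over the 7 members the level was 217 CPM with ATRA+agonist and 209 CPM with vehicle, a log2 ratio of 0.05 (-0.09 to 0.20).

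Several measures of the MuSC-like cells differed between the libraries beside these values. The mitochondrial share of UMIs was 3.24% with ATRA+agonist and 2.93% with vehicle, and Malat1, a transcript that stays in the nucleus, stood at 25687 and 23762 CPM. Hemoglobin stood at 287 and 862 CPM, and the summed markers of neutrophils at 1.20 and 274 CPM over 8 markers, of which 5 and 0 were at 0. Myog, a marker of differentiating myogenic cells, had a UMI in 16 and 2 cells. Without the cells that held one, the log2 ratios were -0.52 for Sirt1 and 0.35 for Sirt2. The part of the other measures in the sirtuin values was not tested.

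Outside the MuSC-like class, the interval of Sirt1 lay below 0 in endothelial-like cells and in the class of smooth muscle and pericytes. In endothelial-like cells Sirt1 had 839 and 1106 UMIs (115 and 140 CPM) and a log2 ratio of -0.28 (-0.41 to -0.15). In smooth muscle or pericyte-like cells it had 75 and 141 UMIs (82.0 and 126 CPM) and a log2 ratio of -0.62 (-1.04 to -0.20), the called value. The call was lost in several other ways of keeping or weighting cells, and the ratio was -0.12 after each cell was thinned to 1000 UMIs. In FAP-like cells, which held the most UMIs of the gene, 1309 and 1368, the ratio was -0.04 (-0.15 to 0.07). The intervals of Sirt1 in MuSC-like and FAP-like cells did not overlap. In smooth muscle or pericyte-like cells, Malat1 stood at 54594 and 47226 CPM and the summed markers of myonuclei at 221 and 21.4 CPM over 10 markers, of which 1 and 3 were at 0, and their part in the ratio was not tested.

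Sirt2 had an interval above 0 in the other 2 classes with the most cells. In FAP-like cells it had 792 and 672 UMIs (58.6 and 48.8 CPM) and a log2 ratio of 0.27 (0.11 to 0.42), and in endothelial-like cells 416 and 390 UMIs (57.0 and 49.3 CPM) and 0.21 (0.01 to 0.41). With every cell thinned to 1000 UMIs, the ratio was 0.59 in FAP-like and -0.02 in endothelial-like cells. In monocyte or macrophage-like cells it was -0.02 (-0.24 to 0.20) on 409 and 296 UMIs, and a difference was not detectable at this depth. Sirt7 in FAP-like cells had 157 and 208 UMIs (11.6 and 15.1 CPM) and a log2 ratio of -0.38 (-0.69 to -0.07). In endothelial-like cells, where it had 194 and 174 UMIs (26.6 and 22.0 CPM), the ratio of Sirt7 was 0.27 (-0.03 to 0.58). These 2 intervals did not overlap, and the difference between the classes was not tested beyond that. Within endothelial-like cells, the ratio of Sirt7 was -0.17 (-0.56 to 0.24) in the cluster led by Aqp1 and Kdr. It was -0.05 in that led by Cd274 and Gbp4 and 1.29 (-0.06 to 2.88) in the shallow cluster, on 22 and 6 UMIs. In the remaining clusters it was 0.28 and 0.38, and every interval included 0. The part of the unequal cluster numbers in the class ratio of Sirt7 was not tested. In endothelial-like cells median-of-ratios scaling lowered all ratios by 0.10, to -0.38 for Sirt1, 0.11 for Sirt2 and 0.17 for Sirt7.

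A quotient of 2 genes in the same cells needs no scaling by total UMIs. The log2 quotient of Sirt2 over Sirt1 UMIs in MuSC-like cells was 0.76 (0.52 to 1.01) with ATRA+agonist and -0.13 (-0.35 to 0.08) with vehicle. Since the genes differ in length, the quotient is read between libraries and classes and not against 0. The difference between the libraries was 0.89 (0.57 to 1.21), or a quotient 1.86 times as high. It equals the log2 ratio of Sirt2 minus that of Sirt1 given above and was added after the data were seen. The difference is therefore not further evidence beside those ratios. How often other pairs of genes differ as much was not tested. In endothelial-like cells the quotients were -1.01 and -1.50 with a difference of 0.49 (0.25 to 0.73), and in FAP-like cells -0.72 and -1.03 with a difference of 0.30 (0.12 to 0.48). Smooth muscle or pericyte-like cells had -0.40 and -1.10 and a difference of 0.70 (0.05 to 1.35). In the other 4 compared classes the difference lay between 0.09 and 0.35 and its interval included 0. The interval of MuSC-like cells lay above that of FAP-like cells and overlapped those of the other classes named. All classes of a condition come from the same library, so that the direction they share is not a repeat of the comparison.

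**Figure D3:**
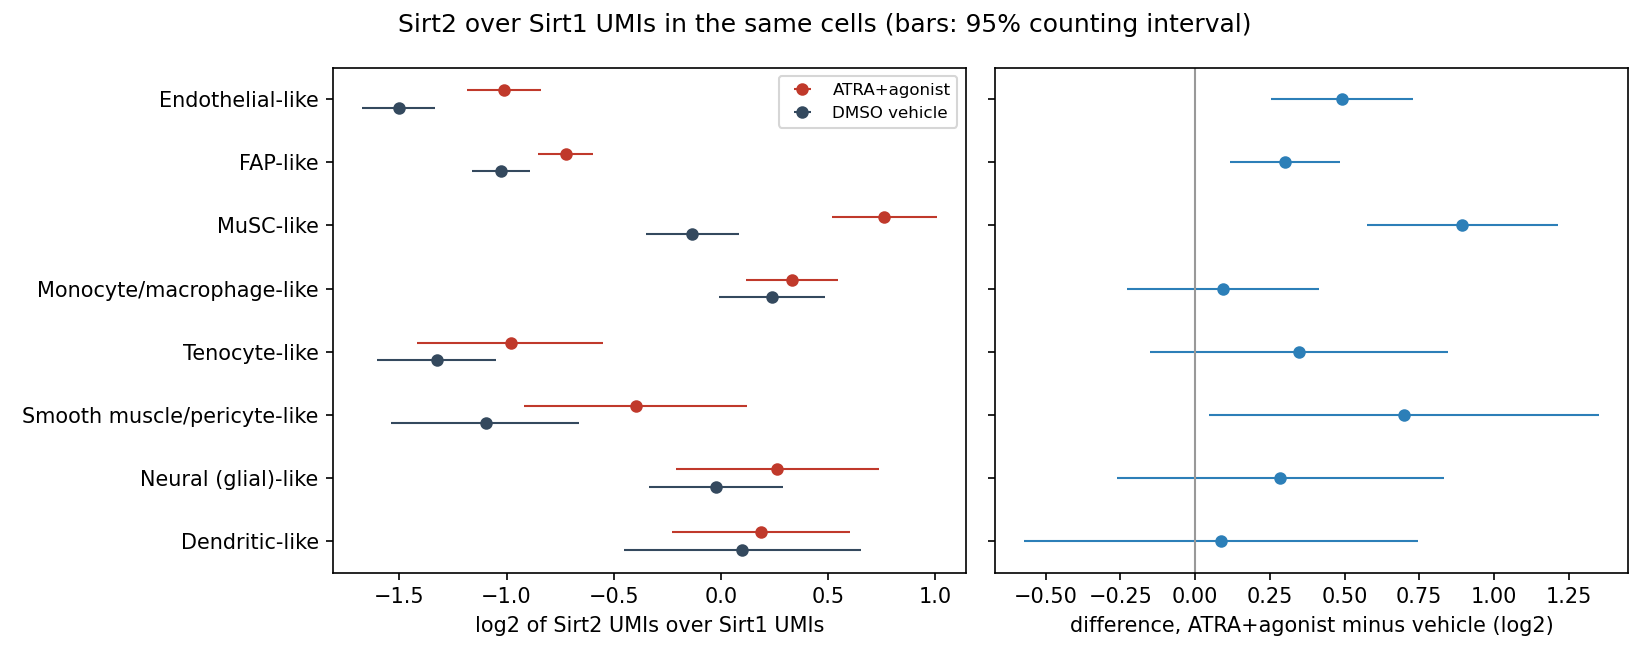
Left, log2 of Sirt2 UMIs over Sirt1 UMIs in each class and library; right, the difference of ATRA+agonist minus vehicle, both with 95% counting intervals. All 8 differences lay above 0, and the interval excluded 0 in MuSC-like, endothelial-like, FAP-like and smooth muscle or pericyte-like cells. The quotient was added after the data were seen, and each difference follows from the ratios of Sirt2 and Sirt1 in that class. With thinned cells, on few UMIs, tenocyte-like cells turned to -0.20 and dendritic-like cells to -2.31. In the latter, 12 and 3 thinned cells held a Sirt1 UMI and 6 and 8 a Sirt2 UMI.

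Within the MuSC-like and the endothelial-like classes, Sirt1 varied between clusters by more than it did between the libraries. The sirtuins and the listed pathway genes had been left out of the genes used for clustering. Most MuSC-like cells fell in 1 cluster (348 and 494 cells), in which Sirt1 stood at 61.0 and 91.7 CPM and Sirt2 at 116 and 86.8 CPM, with log2 ratios of -0.59 (-0.85 to -0.33) and 0.41 (0.20 to 0.63). A smaller MuSC-like cluster (67 and 38 cells, median depth 2815 UMIs) had Sirt1 at 139 and 180 CPM and Sirt2 at 69.7 and 47.5 CPM, on 32, 19, 16 and 5 UMIs. Malat1 stood at 56014 and 50507 CPM in that cluster and at 23450 and 23034 CPM in the larger one. In endothelial-like cells, the shallow cluster led by Rflnb and Unc45b had Sirt1 at 23.1 and 22.3 CPM with Malat1 at 792 and 1393 CPM, against 125 and 148 CPM of Sirt1 and 20326 and 19938 CPM of Malat1 in the cluster led by Aqp1 and Kdr. Sirt2 was similar in these 2 endothelial-like clusters, at 57.7 and 64.3 CPM and at 57.8 and 57.2 CPM. Within the MuSC-like pair and within the endothelial-like pair of clusters, Sirt1 was lower in the cluster with less Malat1. Across classes this did not always hold. The neural (glial)-like cluster led by Gm20754 and Il1rapl1 had Malat1 at 49857 and 41653 CPM and Sirt1 at 99.1 and 64.0 CPM. That is more Malat1 but less Sirt1 than in the cluster led by Aqp1 and Kdr. The part of nuclear RNA content in the levels of Sirt1 was not tested.

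**Figure D4:**
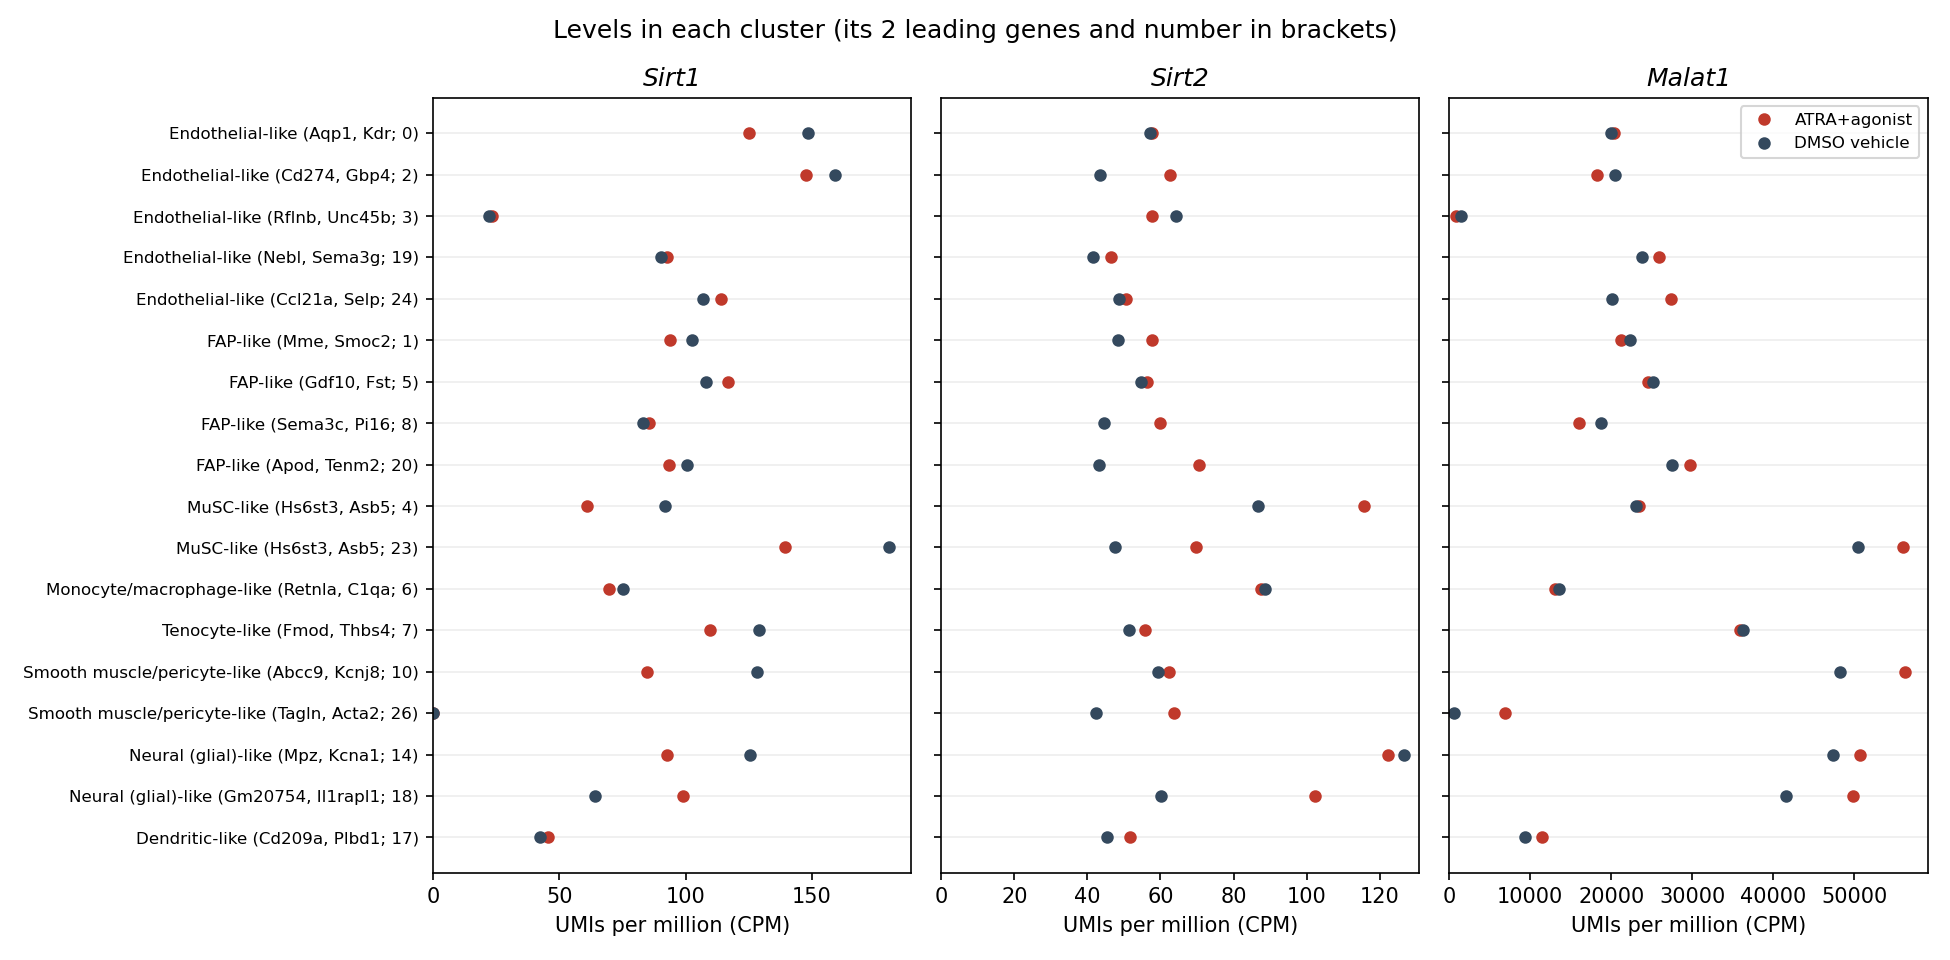
CPM of Sirt1, Sirt2 and, for comparison, Malat1 in every cluster of the 8 classes, 1 point per library, with the 2 leading genes and the number of each cluster. Sirt1 spans 22.3 to 180 CPM in the clusters with a UMI of it, lowest in the shallow endothelial-like cluster led by Rflnb and Unc45b, and the 22 and 16 cells of the cluster led by Tagln and Acta2, with 0 UMIs, are too few to be placed.

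The ratio of Sirt1 in endothelial-like cells was also taken in each of their 5 clusters, which the libraries held in unequal numbers. In the cluster led by Aqp1 and Kdr it was -0.25 (-0.42 to -0.07), in the cluster led by Cd274 and Gbp4 -0.11 (-0.61 to 0.35), and in the shallow cluster 0.05 (-1.26 to 1.44). It was 0.04 (-0.53 to 0.60) and 0.09 (-0.79 to 0.91) in the remaining clusters. The intervals of the 5 clusters overlapped, so a difference between clusters was not detectable. The mean over clusters of equal weight was -0.03, in which the shallow cluster, with 14 and 9 UMIs of Sirt1, counts as much as the largest. The ratio of Sirt2 in the cluster led by Aqp1 and Kdr was 0.02 (-0.27 to 0.30). In FAP-like cells Sirt2 was above 0 in all 4 clusters, from 0.05 to 0.71, and the interval excluded 0 in 3 of them. The ratio of Sirt1 in FAP-like clusters lay between -0.13 and 0.11.

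The enzymes that make and consume NAD+ and the other genes tied to sirtuins were read from lists chosen with earlier results of these data known. Of 30 NAD enzymes, 12 reached 100 UMIs in MuSC-like cells and none was called in either direction, with a median log2 ratio of -0.06 against 0.03 over all genes. Of the 11 zinc-dependent deacetylases, the other family of lysine deacetylases, 7 reached 100 UMIs, none was called and the median was -0.09. Among 23 regulators of sirtuins, 15 reached 100 UMIs and 1 was lower, and among 49 substrates 35 reached 100 UMIs, 2 were higher and 2 were lower, with medians of -0.04 and 0.13. These 1 of 15 and 4 of 35 calls stand beside 7.09% of all genes in this class.

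Foxo3, a forkhead transcription factor that is both a substrate of sirtuins and a regulator of Sirt1, is the regulator that was lower and 1 of the 2 substrates. It had 180 UMIs with ATRA+agonist and 408 with vehicle in MuSC-like cells (53.9 and 103 CPM), a log2 ratio of -0.93 (-1.19 to -0.67). The other lower substrate was Tuba4a, a tubulin whose family is deacetylated by Sirt2, with 82 and 166 UMIs (24.5 and 41.8 CPM) and a log2 ratio of -0.77 (-1.17 to -0.38). The listed tubulins Tuba1a and Tuba1b had more UMIs, 1315 and 1194 and 736 and 640. Their log2 ratios lay above 0 and were not called, at 0.39 (0.28 to 0.50) and 0.45 (0.30 to 0.61). Idh2, the mitochondrial isocitrate dehydrogenase that Sirt3 deacetylates, was higher with 349 and 246 UMIs (104 and 61.9 CPM), a log2 ratio of 0.75 (0.52 to 0.996). Foxo4, another forkhead factor, was higher with 82 and 60 UMIs (24.5 and 15.1 CPM) and a log2 ratio of 0.70 (0.20 to 1.21).

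Foxo3 was followed through the other classes after its value had been seen. It was below 0 in all 8, called in MuSC-like and smooth muscle or pericyte-like cells, the latter at -0.82 (-1.22 to -0.44). Its interval also excluded 0 in FAP-like (-0.57), endothelial-like (-0.46), tenocyte-like (-0.41) and monocyte or macrophage-like cells (-0.35). In neural (glial)-like and dendritic-like cells, at -0.24 and -0.15, it included 0. Over the 8 classes, NAD enzymes gave 95 combinations of gene and class with 100 UMIs, of which 1 was called higher and 7 lower, zinc-dependent deacetylases 54 with 1 and 2, regulators 118 with 5 and 5, and substrates 258 with 6 and 9, beside 7.69% called over all genes and classes. Nothing particular to these lists is read from the counts. Of the 7 lower calls of NAD enzymes, 3 were in endothelial-like cells and were named after their values were seen: Ido1 (-3.04), which starts the breakdown of tryptophan toward NAD+ and is also a leading gene of the cluster with 74 and 994 cells, Parp3 (-1.07), an ADP-ribosyltransferase, and Nampt (-0.66), the rate-limiting enzyme of NAD+ salvage.

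The genes whose levels ran most alike to each sirtuin were sought over the 16 sums of class and library among 11243 genes with at least 500 UMIs, as a description in which points of 1 library share its depth and processing. For Sirt1 they were Aak1 (Pearson r of log2(CPM + 10) 0.94), Dvl1 (0.94) and Tspan4 (0.93). For Sirt2 they were Fam13b (0.92), Snx6 (0.89) and Sema4b (0.87). Sirt3 ran with Clec16a (0.90), Prdx2 (0.85) and Txndc16 (0.85), Sirt5 with Med31 (0.97), Zfp532 (0.97) and Aamdc (0.97), and Sirt7 with Zfp263 (0.95), Ppp1r18 (0.94) and Bax (0.94). Sirt4 and Sirt6 did not reach 500 UMIs. No other sirtuin was among the 3 genes of any member.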

How the data were processed

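Mononucleated cells of hindlimb muscle were profiled by 10x 3' scRNA-Seq, 1 library per condition. The authors deposited raw UMI counts per gene and barcode, made with Cell Ranger 7.2.0 (per the submitters' processing notes) on the mm10 genome; the annotation release and whether intronic reads were counted are not given in the sources used here, nor is any removal of doublets before deposit. The members and the gene and marker lists were chosen with earlier results of these data known.

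Barcodes with 300 to 5000 genes, under 20% mitochondrial counts and under 0.25% hemoglobin beta counts were kept, and 7.5% of cells per library were removed as doublets by comparison with simulated ones. Cells were clustered (python-igraph 0.11.9, scikit-learn 1.9.0, resolution 0.8, 30 components, 2000 variable genes) without the sirtuins and listed genes, 121 in all. A cluster was named where at least 3 listed markers were 2-fold enriched, with rules set after the clusters were seen. Counts were summed per class and library and given as CPM with exact Poisson intervals. Ratios carry exact conditional binomial intervals and quotients of 2 genes approximate normal ones (scipy 1.17.1). Barcodes with at least 10% hemoglobin counts served as the reference for free RNA. Named genes were the 7 members, the listed genes called in MuSC-like cells and the 3 genes most alike to each member with at least 500 UMIs, and others are said to be chosen after their values were seen. Scripts were tested on simulated data. Other filters, cluster resolutions, scalings, thinned counts and call limits were tried. After seeing the data, the mean over cells, the quotient and the MuSC-like cells without Myog were added.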

Additional observations from a re-analysis of the deposited data

Results flagged for a closer look

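The barcodes left out as red blood cells, 10761 over both libraries with at least 10% hemoglobin, are data outside the main comparisons, and they held UMIs of all 7 sirtuins above the limit that a count of 0 allows. Outside hemoglobin, Sirt1 stood there at 63.8 CPM (387 UMIs) and Sirt2 at 41.7 CPM (253 UMIs). Sirt7 stood at 13.5 CPM (82 UMIs), Sirt3 at 7.58 CPM (46 UMIs) and Sirt5 at 5.93 CPM (36 UMIs). Sirt4 stood at 3.46 CPM (21 UMIs) and Sirt6 at 3.30 CPM (20 UMIs). By library (ATRA+agonist and DMSO vehicle), Sirt1 stood at 63.7 and 63.8 CPM, Sirt2 at 44.2 and 41.1, Sirt3 at 12.7 and 6.34, Sirt4 at 1.70 and 3.88, Sirt5 at 7.65 and 5.52, Sirt6 at 0.849 and 3.88 and Sirt7 at 17.8 and 12.5. With ATRA+agonist, Sirt4 rested on 2 UMIs (0.21 to 6.14 CPM) and Sirt6 on 1 UMI (0.02 to 4.73 CPM). The limit named above was passed by the counts of both libraries together, and these single-library counts do not pass it.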

How the results depend on the processing

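Under the alternatives, the called ratio kept its direction. The 29 log2 ratios gave 425 values over the alternatives, of which 405 lay within the counting interval of the main value. For 8 quotients this held for 80 of 83 values, and for 112 levels for 152 of 224. The alternatives share cells with the main run, so these values are not independent. Most ratios and quotients outside the interval were thinned values, with Sirt1 in MuSC-like cells among them. In MuSC-like cells, Sirt1 moved from -0.50 to -0.25 with every cell thinned to 1000 UMIs and reached -0.61 with each cell classed by its own marker UMIs, Sirt2 lay between 0.29 and 0.59, and the difference of the Sirt2 over Sirt1 quotient between 0.81 and 0.96. Thinning also turned the direction of Sirt2 in endothelial-like (-0.02), tenocyte-like (-0.53), dendritic-like (-0.76) and monocyte or macrophage-like cells (0.71) and of Sirt1 in FAP-like (0.11), monocyte or macrophage-like (0.28) and neural (glial)-like cells (-0.31), on fewer UMIs by construction. The count of sirtuin and class combinations called higher, 0, became 1 without the hemoglobin filter (Sirt2 in a red blood cell-like class, 0.65), 1 without the upper limit on genes (Sirt2 in neural (glial)-like cells, 0.61), 1 with thinned cells (Sirt2 in FAP-like cells, 0.59), 3 at a lower fold limit and 4 at a minimum of 30 UMIs. The count called lower, 1, became 0 without doublet removal, without the hemoglobin filter, without the upper limit on genes, with thinned cells, with the mean over cells, at 2-fold and at a minimum of 300 UMIs. It became 2 with each cell classed by its own markers (adding Sirt1 in MuSC-like cells), with the mean of within-cluster ratios (adding Sirt7 in FAP-like cells, -0.68) and at a minimum of 30 UMIs, and 3 at the lower fold limit. The cause of these changes was not tested, except that the fold and UMI minimums change what is called by construction. At a minimum of 30 UMIs, 2 NAD enzymes and 1 zinc-dependent deacetylase were called higher in MuSC-like cells, against 0 and 0. Sirt1 in endothelial-like cells lay at -0.03 as the mean of within-cluster ratios and at -0.46 as the mean over cells. No paired analysis was possible because each group has 1 library. Depth limits Sirt4 and Sirt6 most, with 5 to 108 and 7 to 93 UMIs per class, and no library was repeated, so the spread between mice is unknown for every value.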

Other observations

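The 3 clusters that could not be named held the highest and some of the lowest levels of Sirt1. In the cluster led by Dach1 and Pdgfd (138 cells with ATRA+agonist and 213 with vehicle) Sirt1 stood at 178 and 278 CPM and Sirt2 at 25.4 and 20.2 CPM, with Malat1 at 29118 and 40067 CPM. In the cluster led by the adipocyte genes Car3 and Cfd (67 and 108 cells) Sirt1 stood at 192 and 282 CPM and Sirt2 at 58.1 and 24.1 CPM, with Malat1 at 52967 and 58222 CPM. The cluster led by the mast cell proteases Cma1 and Mcpt4 (162 and 161 cells) had Sirt1 at 27.7 and 47.9 CPM and Sirt2 at 88.6 and 61.9 CPM, with Malat1 at 10303 and 18807 CPM. Its leading genes also held Cldn1, a listed marker of perineurial cells, so these values are not read as those of mast cells alone. In all 3 clusters Sirt1 was lower and Sirt2 higher with ATRA+agonist, on few UMIs, and the part of Malat1 in these values was not tested. The classes too small to compare did not all share these directions: T or NK cell-like cells had log2 ratios of 0.06 for Sirt1 and -0.45 for Sirt2, B cell-like cells -0.07 and -0.03, neutrophil-like cells 0.05 and 0.75, and myonuclei-like barcodes -0.68 for Sirt2.

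Over all deposited barcodes, before any was left out, the direction of Sirt1 depended on hemoglobin, which took 24.0% of UMIs with ATRA+agonist and 50.8% with vehicle. As a share of all UMIs Sirt1 stood at 64.4 and 47.7 CPM (log2 ratio 0.43), and as a share of UMIs outside hemoglobin at 84.8 and 97.0 CPM (-0.20, -0.25 to -0.14). The log2 ratio of Sirt2 went from 0.80 to 0.18 (0.11 to 0.25), that of Sirt7 from 0.89 to 0.27 and that of Sirt3 from 0.85 to 0.23 with the same change of denominator.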
